A study of Mus musculus with 18 samples.

Results

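Mature osteoblasts marked by bright green fluorescent protein (GFP) were compared between bone chip culture and freshly isolated bone. The comparison used 6 of the 18 RNA-seq libraries in the series, chosen by their labels alone: 3 bone chip GFP+ (hi) libraries and 3 bone GFP+ (hi) libraries. All came from Col2.3GFP transgenic mice, in which a fragment of the Col1a1 promoter drives GFP in maturing cells of the osteoblast lineage, so that the sort itself selects for activity of that promoter. The bone chip GFP+ (hi) cells were sorted from cultured pieces of bone after osteogenic differentiation, and the bone GFP+ (hi) cells were sorted directly from mouse long bone, with no culture. GFP- cells of both sources, labelled as a heterogeneous population, served as a second pair of groups (3 bone chip GFP- and 3 bone GFP- libraries). The age and sex of the mice, the skeletal site of the chips, the length of culture and whether replicates came from separate animals were not given in the sources used here. The p-values therefore measure the spread between these libraries, which may in part be technical. Each source has its own count table, so that source, culture, table and any difference between the donor mice cannot be told apart.

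Osteoblasts secrete type I collagen and the proteins that mineralise it, and some become osteocytes, cells buried in the matrix that make the Wnt inhibitor sclerostin (Sost) and hormones of phosphate balance. Bglap encodes osteocalcin, a small secreted protein of late osteoblasts, and Slc2a1 encodes GLUT1, the main glucose transporter of the osteoblast lineage. When oxygen is low, hypoxia-inducible factors bind a short DNA core, ACGTG, near genes of glucose uptake, glycolysis and mitochondrial turnover. Runx2, the master transcription factor of osteoblasts, binds a core spelled ACCACA. The promoters of 5 genes of the low-oxygen and glycolysis lists and of Bglap are shown because much of the comparison turns on these genes. All 5 hold the ACGTG core, unlike most windows of their lists, so they do not stand for those lists. Each run is the 250 bases before the start of the gene (RefSeq, build GRCm38.p6), with the core on either strand in capitals, ACGTG or CACGT for the first 5 and ACCACA for Bglap.
Slc2a1: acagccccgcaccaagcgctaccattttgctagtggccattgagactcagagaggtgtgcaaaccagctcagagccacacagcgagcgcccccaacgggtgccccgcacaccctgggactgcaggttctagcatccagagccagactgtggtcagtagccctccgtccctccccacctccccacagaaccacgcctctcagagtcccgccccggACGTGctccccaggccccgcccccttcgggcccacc
Pgk1: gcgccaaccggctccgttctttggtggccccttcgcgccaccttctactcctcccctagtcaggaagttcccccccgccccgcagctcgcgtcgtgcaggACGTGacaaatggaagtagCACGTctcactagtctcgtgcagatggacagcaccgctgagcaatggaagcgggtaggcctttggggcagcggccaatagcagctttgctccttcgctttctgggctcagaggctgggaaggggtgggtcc
Bnip3: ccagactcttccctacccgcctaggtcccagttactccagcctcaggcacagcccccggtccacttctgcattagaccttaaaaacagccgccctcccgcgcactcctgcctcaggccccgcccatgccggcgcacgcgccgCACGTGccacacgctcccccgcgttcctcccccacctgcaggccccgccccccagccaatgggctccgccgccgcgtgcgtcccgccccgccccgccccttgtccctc
Egln3: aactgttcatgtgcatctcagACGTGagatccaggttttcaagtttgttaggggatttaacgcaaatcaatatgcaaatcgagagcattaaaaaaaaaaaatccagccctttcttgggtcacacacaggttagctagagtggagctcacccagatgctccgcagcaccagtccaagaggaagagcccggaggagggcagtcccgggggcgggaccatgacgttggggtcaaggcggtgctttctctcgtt
Car9: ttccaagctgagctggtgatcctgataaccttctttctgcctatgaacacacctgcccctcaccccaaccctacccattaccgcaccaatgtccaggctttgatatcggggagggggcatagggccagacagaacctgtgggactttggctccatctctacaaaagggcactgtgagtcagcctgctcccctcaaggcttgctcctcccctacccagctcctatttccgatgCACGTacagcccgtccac
Bglap: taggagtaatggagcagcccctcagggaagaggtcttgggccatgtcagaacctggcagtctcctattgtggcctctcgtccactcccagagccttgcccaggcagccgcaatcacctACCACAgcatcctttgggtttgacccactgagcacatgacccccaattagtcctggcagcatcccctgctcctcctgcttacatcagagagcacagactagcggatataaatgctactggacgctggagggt
The windows are chr4:119108495-119108744 (+) for Slc2a1, chrX:106186850-106187099 (+) for Pgk1, chr7:138909507-138909756 (-) for Bnip3, chr12:54203875-54204124 (-) for Egln3, chr4:43506776-43507025 (+) for Car9 and chr3:88384467-88384716 (-) for Bglap. The ACGTG match of Slc2a1 began 36 bases before the start and that of Car9 18 bases before it. Pgk1 held 2 matches, and the 2 of Bnip3 overlapped because CACGTG reads the same on both strands. Windows with ACGTG or CACGT made up 42.4% of 33 windows of the glycolysis list (21 symbols) and 48.4% of 31 windows of the low-oxygen list (21 symbols), beside 16.6% of all 32851 promoter windows, 21.6% of the 12065 windows of genes tested and 24.3% of 37 windows of the ribosomal protein list. The Runx2 core ACCACA (or TGTGGT) was in 14% of all windows, 10.6% of those of genes tested and 3 of 26 windows of the bone matrix list. A match describes the letters of the window and is no evidence of binding.

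The bone chip GFP+ (hi) libraries held 13228266 to 15221973 counts and the bone GFP+ (hi) libraries 21425212 to 43874837. Of 15968 genes listed in both tables, 12556 had enough counts to be tested. Unless stated otherwise, levels are CPM, counts scaled to a common library size and normalised over the 6 libraries by the trimmed mean of M values (TMM). The TMM factors were 1.26 to 1.33 in bone chip GFP+ (hi) and 0.749 to 0.798 in bone GFP+ (hi). Log2 fold changes are bone chip over bone with their standard error (SE), and a gene was called at an adjusted p under 0.05 (edgeR quasi-likelihood test, Benjamini-Hochberg adjustment over all genes tested). By this rule 3876 genes (30.9%) were higher and 3970 (31.6%) lower in bone chip GFP+ (hi), 62.5% in either direction, so that a list with most members called is not unusual here. In 71.8% of the genes tested the libraries of the 2 groups did not overlap. The transcript of ribosomal RNA, Rn45s, took 10.8 ± 2.44% of the counts in bone chip GFP+ (hi) and 0.223 ± 0.106% in bone GFP+ (hi) (SD, n = 3 each). Counts of Y-linked genes were 0, 1 and 1 in bone chip GFP+ (hi) and 6, 913 and 9 in bone GFP+ (hi), so that bone GFP+ (hi) replicate 2 stood apart. They were 0 in every bone chip GFP- library, against 727, 1167 and 625 in bone GFP-. Xist, the transcript of the inactive X chromosome in female cells, took 0.0246%, 0.0248% and 0.0202% of the counts in bone chip GFP+ (hi), against 0.00169%, 0.000103% and 0.00115% in bone GFP+ (hi), and its groups did not overlap. The part of a difference in the sex of the mice in the results was not tested. Without bone GFP+ (hi) replicate 2 3742 genes were higher and 3815 lower. In addition, 35 genes present in bone GFP+ (hi) averaged at least 100 CPM in embryonic stem cells (no TMM factors). They reached at most 0.5 CPM in every bone and bone chip library outside bone GFP+ (hi). Their median level in bone GFP+ (hi) was 0.287% of their stem cell level. All genes under 2 times the level expected from that share were then left out, including genes with 0 counts in bone GFP+ (hi). They were 192 of the genes tested, 25 of them called lower. Without them 3774 were higher and 3905 lower.

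Col1a1, the gene whose promoter drives the GFP, took 12.8%, 12.1% and 14.4% of the counts in the bone chip GFP+ (hi) libraries, against 36.2%, 37.5% and 36.6% in the bone GFP+ (hi) libraries. The means were 13.1 ± 1.2% and 36.7 ± 0.656% (SD, n = 3 each), with no overlap (exact permutation test, two-sided p = 0.1, the smallest that 3 against 3 allows). The 10 genes with the most counts took 46.4 ± 1.18% of the counts in bone chip GFP+ (hi) and 65.9 ± 0.480% in bone GFP+ (hi). Col1a1 took the largest share of any gene in each of the 6 libraries. Counts of Col1a1, Alpl, Ibsp, Runx2 and Sp7, used as osteoblast markers, were present in every library of both groups. Presence alone does not set these cells apart, because Col1a1 took 0.806% to 3.37% and Ibsp 0.0826% to 0.494% of the counts in GFP- libraries. On the normalised scale Col1a1 was 102160, 90587 and 110588 CPM in bone chip GFP+ (hi), against 453457, 488869 and 488219 CPM in bone GFP+ (hi) (log2 fold change -2.24, SE 0.15, adjusted p = 1.3e-05). Its partner chain Col1a2 fell as well (log2 fold change -1.64).

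Osteocalcin was among the 10 largest falls of the comparison. Bglap was at 239, 199 and 438 CPM in bone chip GFP+ (hi), against 48491, 48278 and 69035 CPM in bone GFP+ (hi), which gave -7.56 on the log2 scale (SE 0.40, adjusted p = 5.3e-06). Every chip library was far below every bone library, and replicate 3 was the highest of its group in both sources. Bglap took 0.0379 ± 0.0168% of the counts in bone chip GFP+ (hi) and 4.25 ± 0.804% in bone GFP+ (hi) (SD, n = 3 each). Bglap lies at chr3:88187423-88188386 (mm9, minus strand) beside the near-identical Bglap2, so the split of reads between the copies is uncertain. Bglap2 and Bglap3 moved the same way, with log2 fold changes of -7.24 and -4.78 (the second -5.54 without bone chip replicate 3).

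Bone sialoprotein went in the opposite direction. Ibsp, which encodes this acidic protein of mineralising matrix, was at 43386, 40515 and 44304 CPM in bone chip GFP+ (hi), against 5759, 5932 and 9364 CPM in bone GFP+ (hi) (log2 fold change 2.61, SE 0.21, adjusted p = 2.9e-05). The groups did not overlap, and bone replicate 3 was the highest of its group. Spp1, which encodes osteopontin of the same protein family, was at 3076, 2660 and 4106 CPM in bone chip GFP+ (hi), against 3474, 3719 and 2359 CPM in bone GFP+ (hi). Its groups overlapped and no difference was called (log2 fold change 0.04, SE 0.22, adjusted p = 0.88). The 3 classical markers of the mature osteoblast matrix therefore gave 3 different results, one lower, one higher and one not called.

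**Figure D1:**
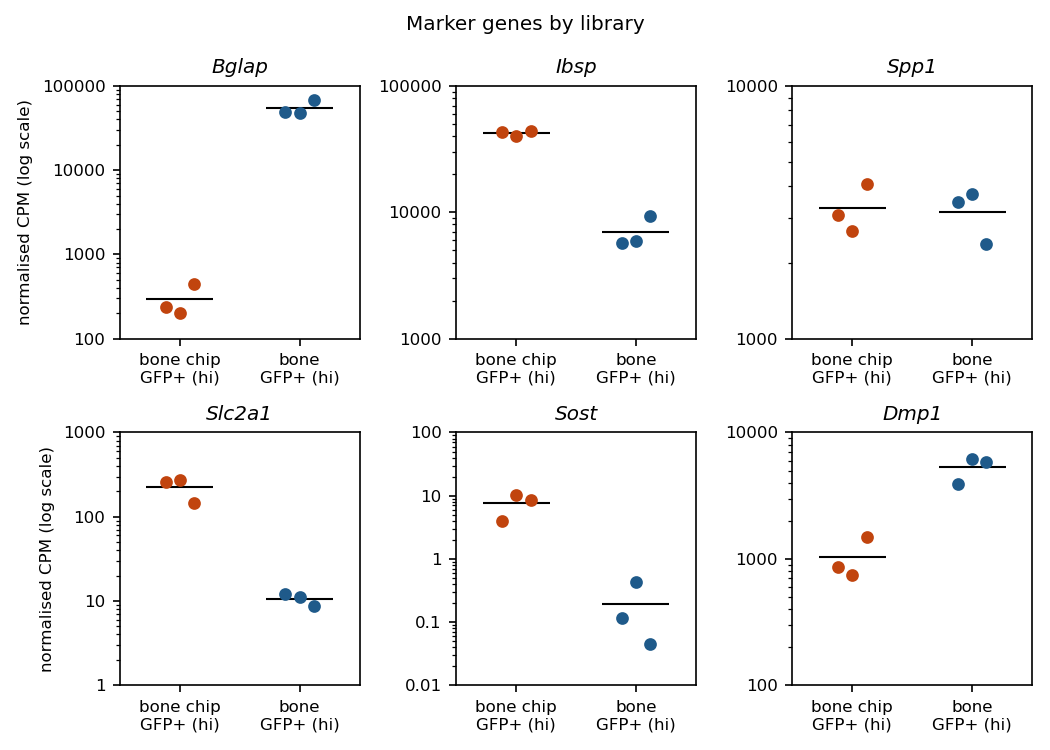
Level of 6 marker genes in each GFP+ (hi) library, with CPM (TMM over 6 libraries) on a log axis, bone chip left of bone, points for libraries and horizontal lines for group means. Bglap and Dmp1 sit lower and Ibsp, Slc2a1 and Sost higher in bone chip GFP+ (hi), while the Spp1 libraries overlap.

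Among 32 bone matrix proteins, all tested, 9 rose, 17 fell and 6 were not called, and the median log2 fold change was -1.13, beside a median of about 0 over all genes. The small leucine-rich proteoglycans, which bind collagen fibrils, did not move together. Kera (keratocan) was at 0.481, 0.797 and 0.202 CPM in bone chip GFP+ (hi), against 49.3, 60.7 and 14.3 CPM in bone GFP+ (hi) (log2 fold change -6.39, SE 0.69). Dcn (decorin) and Lum (lumican), named after their values were seen, fell (log2 fold changes -2.74 and -2.67), whereas Ogn (osteoglycin) rose by 1.84. Of the other collagens, Col12a1, a collagen that decorates fibril surfaces, was at 949, 855 and 948 CPM in bone chip GFP+ (hi), against 106, 111 and 109 CPM in bone GFP+ (hi) (log2 fold change 3.08, SE 0.10, adjusted p = 1.9e-06). Col11a2, a fibril-nucleating chain, was at 1231, 1082 and 1365 CPM in bone chip GFP+ (hi), against 8110, 8572 and 8223 CPM in bone GFP+ (hi) (log2 fold change -2.76). Both separated the groups completely, in opposite directions. Mgp (matrix Gla protein), an inhibitor of calcification, rose with a log2 fold change of 1.47, and the microfibril protein Fbn2 fell by 3.59 on the log2 scale.

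Of 20 genes of mineral and phosphate handling, 19 were tested, of which 10 rose, 7 fell and 2 were not called (median log2 fold change 0.67). Alpl, the tissue-nonspecific alkaline phosphatase, was at 2391, 2386 and 2138 CPM in bone chip GFP+ (hi), against 1511, 1400 and 1427 CPM in bone GFP+ (hi) (log2 fold change 0.67, SE 0.10, adjusted p = 7.1e-04). Phospho1, the phosphatase of matrix vesicles, was at 35.9, 23.9 and 42.8 CPM in bone chip GFP+ (hi), against 6.63, 4.45 and 5.52 CPM in bone GFP+ (hi) (log2 fold change 2.61). Both were higher in every chip library. Car12, a membrane carbonic anhydrase, was at 475, 454 and 549 CPM in bone chip GFP+ (hi), against 25.1, 28.9 and 51.5 CPM in bone GFP+ (hi) (log2 fold change 3.81, SE 0.28). The citrate transporter Slc13a5 and the phosphate transporter Slc20a1 rose by 2.12 and 1.93 on the log2 scale. The members that fell included genes with a narrow expression in osteoblasts. Ifitm5, a membrane protein of osteoblasts mutated in human osteogenesis imperfecta, was at 45.7, 31.9 and 62.2 CPM in bone chip GFP+ (hi), against 331, 328 and 476 CPM in bone GFP+ (hi) (log2 fold change -3.02). The amino acid transporter Slc36a2, the secretory kinase Fam20c and the sphingomyelinase Smpd3 fell, with log2 fold changes of -3.31, -2.14 and -1.98.

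Of 20 listed osteocyte genes 17 were tested, 6 rose (35.3%) and 7 fell (41.2%), near the 30.9% and 31.6% of all genes. Sost was at 3.97, 10.4 and 8.41 CPM in bone chip GFP+ (hi), against 0.114, 0.426 and 0.0442 CPM in bone GFP+ (hi) (log2 fold change 5.43, SE 0.68, adjusted p = 2.5e-04, and 6.37 without bone replicate 2). The chip libraries were all higher, although the level stayed low in both sources, with 428 counts over the bone chip group and 12 over the bone group. Mepe, a phosphoglycoprotein of osteocytes, was at 93.0, 90.1 and 135 CPM in bone chip GFP+ (hi), against 5.88, 10.4 and 9.72 CPM in bone GFP+ (hi) (log2 fold change 3.63, SE 0.26). Ptprz1, a receptor phosphatase, was at 700, 784 and 654 CPM in bone chip GFP+ (hi), against 26.7, 20.3 and 21.9 CPM in bone GFP+ (hi) (log2 fold change 4.95, SE 0.15, adjusted p = 1.6e-06). Phex, the peptidase lost in X-linked hypophosphataemia, rose by 1.38. Dmp1, the matrix protein of young osteocytes, was at 854, 745 and 1483 CPM in bone chip GFP+ (hi), against 3926, 6144 and 5858 CPM in bone GFP+ (hi) (log2 fold change -2.37, SE 0.30, adjusted p = 2.5e-04). All bone libraries were above all chip libraries for Dmp1, which was the reverse of Mepe and Phex. Gja1 (connexin 43), the gap junction protein of the osteocyte network, fell as well (log2 fold change -1.28), and so did the Wnt inhibitor Dkk1 (-2.09) and the guidance factor Sema3a (-2.93).

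**Figure D2:**
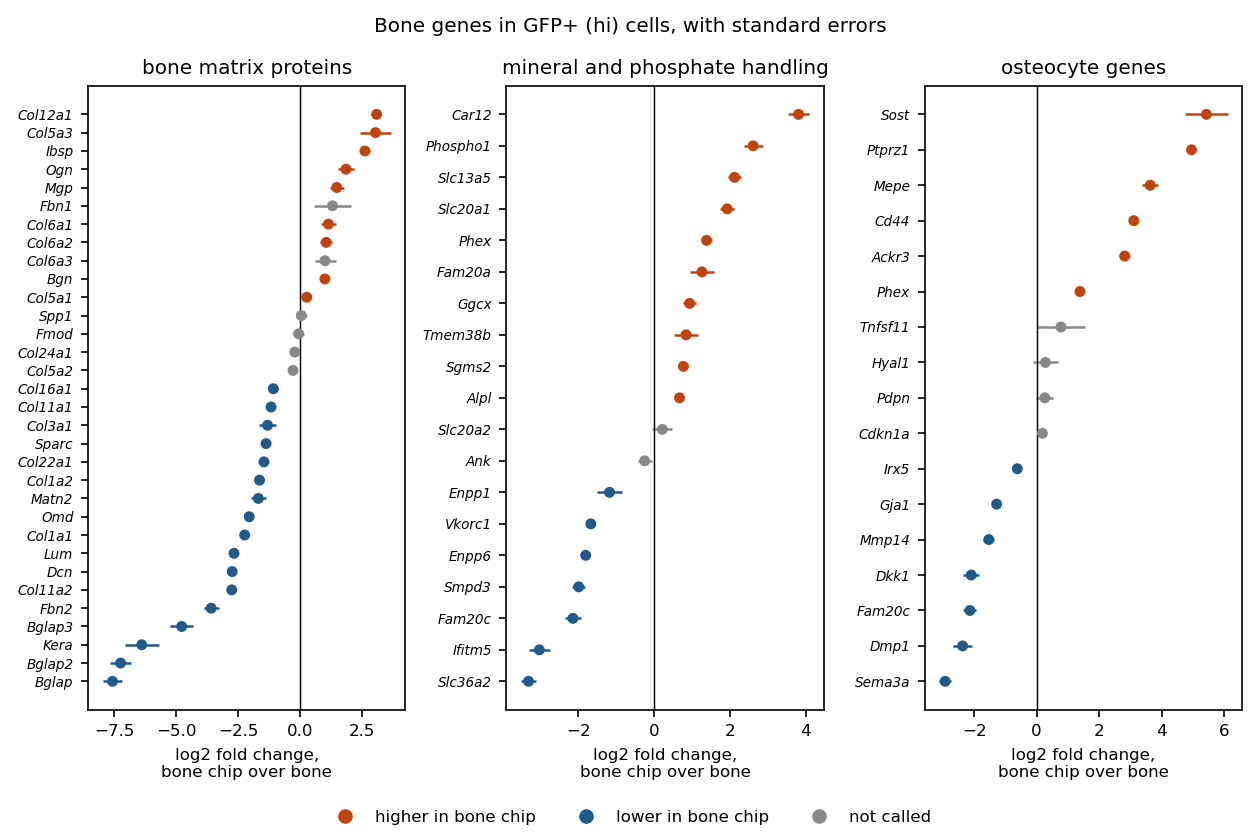
Log2 fold change of bone chip GFP+ (hi) over bone GFP+ (hi) with its SE for each tested member of the bone matrix (32), mineral handling (19) and osteocyte (17) lists, coloured by call. Every list holds called genes on both sides of 0, and the Bglap copies and Kera lie at the low end of the bone matrix list.

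The transcription factors of the osteoblast lineage were mostly lower in culture, with 15 of 26 fallen, 6 risen and a median log2 fold change of -0.90. Runx2 was at 127, 112 and 139 CPM in bone chip GFP+ (hi), against 71.0, 58.5 and 69.0 CPM in bone GFP+ (hi) (log2 fold change 0.92, SE 0.12, adjusted p = 3.4e-04). Sp7 (osterix), which acts after Runx2, was at 68.2, 55.4 and 83.3 CPM in bone chip GFP+ (hi), against 281, 256 and 236 CPM in bone GFP+ (hi) (log2 fold change -1.90, SE 0.16, adjusted p = 3.4e-05). The 2 factors thus separated the groups in opposite directions. Vdr, the vitamin D receptor, was at 20.2, 21.9 and 26.1 CPM in bone chip GFP+ (hi), against 122, 193 and 152 CPM in bone GFP+ (hi) (log2 fold change -2.77). The homeobox genes Dlx3, Msx1 and Msx2 fell, with log2 fold changes of -2.02, -4.49 and -3.39. Without bone chip replicate 1 the values of Msx1 and Msx2 were -5.50 and -4.26. Lef1 and Tcf7, the DNA-binding partners of beta-catenin, had log2 fold changes of -4.12 and -2.11, and Prrx1, a factor of skeletal progenitors, rose by 1.83.

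Genes of glucose use rose almost as a block. Of 22 glycolysis genes tested, 19 rose, 2 fell and 1 was not called, with a median log2 fold change of 2.37 beside about 0 for all genes. Slc2a1 (chr4:118781316-118809935, mm9, plus strand), whose promoter is printed above, was at 260, 271 and 144 CPM in bone chip GFP+ (hi), against 12.1, 11.1 and 8.75 CPM in bone GFP+ (hi) (log2 fold change 4.40, SE 0.28, adjusted p = 9.8e-06). All chip libraries were above all bone libraries, and chip replicate 3 was the lowest of its group. Pgk1, phosphoglycerate kinase, was at 816, 816 and 660 CPM in bone chip GFP+ (hi), against 36.9, 34.2 and 32.7 CPM in bone GFP+ (hi) (log2 fold change 4.46, SE 0.14, adjusted p = 1.6e-06). Gapdh, often used as an unchanging reference gene, was at 1859, 1964 and 1356 CPM in bone chip GFP+ (hi), against 96.5, 91.6 and 92.1 CPM in bone GFP+ (hi) (log2 fold change 4.21, SE 0.17). The aldolase Aldoc was at 41.7, 43.2 and 40.4 CPM in bone chip GFP+ (hi), against 0.942, 0.914 and 0.0442 CPM in bone GFP+ (hi) (log2 fold change 6.0, and 6.59 without bone replicate 1). Slc16a3, the lactate exporter MCT4, was at 200, 181 and 181 CPM in bone chip GFP+ (hi), against 10.4, 17.1 and 8.0 CPM in bone GFP+ (hi) (log2 fold change 4.0). For all of these genes every chip library was above every bone library. Ldha, Pkm and Tpi1, named after their values were seen, rose by 1.27, 1.80 and 2.50 on the log2 scale. Several of these genes, Gapdh, Pgk1, Ldha and Pkm among them, have near-identical copies in the genome, so reads may be split. The members that fell were the neuronal-type transporter Slc2a3 and the regulatory enzyme Pfkfb4, with log2 fold changes of -2.04 and -1.94. Slc2a3 is among the genes whose bone GFP+ (hi) level lay under 2 times that expected from the stem cell share. Other genes used as references also differed, with Actb at a log2 fold change of 2.09 and Hprt at 0.91.

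The GFP- cells gave another comparison of the sources, in cells outside the GFP gate. Over 12 libraries normalised together, 63.4% of 13574 genes were called between the bone chip GFP- and bone GFP- libraries, 32.3% higher and 31.1% lower in bone chip GFP-. Counts of list members in GFP- cells stand beside these shares. The difference between the GFP+ (hi) and the GFP- source changes was called for 30.3%, 2117 genes with a higher and 1991 with a lower change in GFP+ (hi). Markers of another cell type moved with source in the GFP- libraries: chondrocyte markers summed to 8080, 5144 and 9920 CPM in bone chip GFP-, against 233446, 133698 and 258809 CPM in bone GFP-, and 15 of the 18 tested there fell. The part of these cells in the differences between the pairs was not tested. Y-linked counts also differed, at 727, 1167 and 625 in bone GFP- against 0 in each bone chip GFP- library and 6, 913 and 9 in bone GFP+ (hi). The part of sex and of the donor mice in the differences between the pairs was not tested. In GFP- cells 6 of the 22 genes rose and 7 fell (median log2 fold change -0.21), and the difference was called higher in GFP+ (hi) for 17 and lower for 2, beside 15.6% and 14.7% of all genes. On this 12-library scale Slc2a1 was at 353, 367 and 196 CPM in bone chip GFP+ (hi), against 15.9, 14.4 and 11.1 CPM in bone GFP+ (hi). In the GFP- pair Slc2a1 was at 271, 214 and 137 CPM in bone chip GFP-, against 223, 217 and 189 CPM in bone GFP-. The source change of Slc2a1 differed between the pairs by 4.48 on the log2 scale (SE 0.39, adjusted p = 4.4e-06), and the group that stood apart was bone GFP+ (hi), whose 3 libraries were below the other 9. This held for 18 of the 22 glycolysis genes, beside 11.2% of all genes. Bone chip GFP+ (hi) was above the other 9 for 6 of the 22, beside 8.7% of all genes. The summed level of the list was 11179, 11226 and 9563 CPM in bone chip GFP+ (hi), 2094, 2128 and 2100 CPM in bone GFP+ (hi), 7369, 7622 and 5405 CPM in bone chip GFP- and 7230, 7348 and 6700 CPM in bone GFP-.

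**Figure D3:**
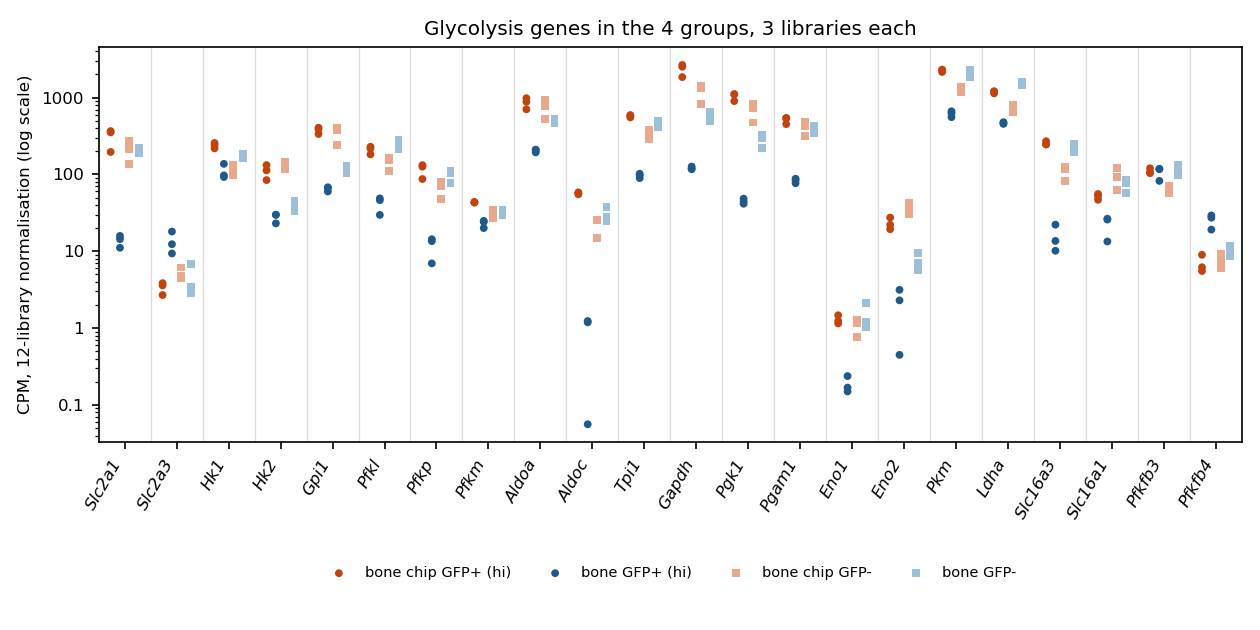
Level of 22 glycolysis genes in pathway order in each of 12 libraries, with CPM (TMM over 12 libraries) on a log axis and one colour per group. The 3 bone GFP+ (hi) libraries are lowest for 18 of the 22 genes, while the bone chip GFP+ (hi) and both GFP- groups lie closer together.

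The low-oxygen list, which holds targets of hypoxia-inducible factors outside glycolysis, had 21 of 27 tested genes risen, 2 fallen and a median log2 fold change of 1.97. Egln3, an oxygen-sensing prolyl hydroxylase, was at 230, 230 and 162 CPM in bone chip GFP+ (hi), against 0.228, 0.122 and 0.0442 CPM in bone GFP+ (hi) (log2 fold change 10.41, SE 0.33, adjusted p = 1.7e-06), with 11 counts over the bone group and 11.27 without bone replicate 1. Bnip3, a mitophagy receptor, was at 479, 495 and 311 CPM in bone chip GFP+ (hi), against 16.9, 13.2 and 16.3 CPM in bone GFP+ (hi) (log2 fold change 4.78, SE 0.22). Car9, a carbonic anhydrase used as a marker of hypoxia, was at 38.1, 41 and 18.2 CPM in bone chip GFP+ (hi), against 0.0571, 0.183 and 0 CPM in bone GFP+ (hi) (log2 fold change 8.78, and 9.65 without bone replicate 2). No libraries overlapped for these 3 genes, and chip replicate 3 was again the lowest of its group for each. Pdk1, which holds pyruvate back from mitochondria, the adenylate kinase Ak4 and the hormone Stc2 rose by 3.63, 5.11 and 5.19 on the log2 scale. Of the hypoxia-inducible factors themselves, named after their values were seen, Hif1a and Epas1 rose by 1.94 and 3.93. Vegfa, the vascular growth factor, was at 229, 230 and 242 CPM in bone chip GFP+ (hi), against 139, 124 and 122 CPM in bone GFP+ (hi) (log2 fold change 0.86), a smaller rise than those above. Bhlhe40 and Plod2 fell, by 1.00 and 0.56. In GFP- cells 10 of the 27 rose and 6 fell, and the difference was called higher in GFP+ (hi) for 17 genes and lower for 1. For Bnip3 the source change was -0.38 in GFP- cells and differed by 5.24 (adjusted p = 2.2e-06), whereas for Vegfa the difference was 0.27 (SE 0.21, adjusted p = 0.37).

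Genes of mitochondrial respiration were lower. Of 42 subunits of the respiratory chain and ATP synthase, 30 fell, with a median log2 fold change of -0.69. Sdhb, a subunit of complex II, was at 16.8, 16.8 and 17.3 CPM in bone chip GFP+ (hi), against 64.3, 56.7 and 69.7 CPM in bone GFP+ (hi) (log2 fold change -1.90). Uqcrc1 of complex III and the cytochrome Cyc1 fell by 1.84 and 1.80. Many of these genes are short, and the tested genes in the shortest quartile of transcript length had a median of -0.48, against 0.73 in the longest quartile. In the shortest quartile 591 genes rose and 1318 fell, and in the longest 1501 rose and 441 fell. By the percentage of G and C bases the median was 0.35 in the lowest quartile and -0.56 in the highest. The part of transcript length and base content in the rises and falls of single genes and lists throughout was not tested. In GFP- cells 26 of the list fell and 2 rose (median -0.48), and the difference between the cell pairs was called for 4 genes in one direction and 2 in the other. Of 42 ribosomal proteins tested 39 rose, with a median of 1.54, and 39 of 42 rose in GFP- cells (median 1.55), with the difference called for 2 genes. Rps28 was at 134, 136 and 135 CPM in bone chip GFP+ (hi), against 14.4, 15.1 and 15.9 CPM in bone GFP+ (hi) (log2 fold change 3.16). Rplp1 rose by 2.52 and Rplp0 by 0.77, and reads of these genes may be shared with their many processed copies.

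**Figure D4:**
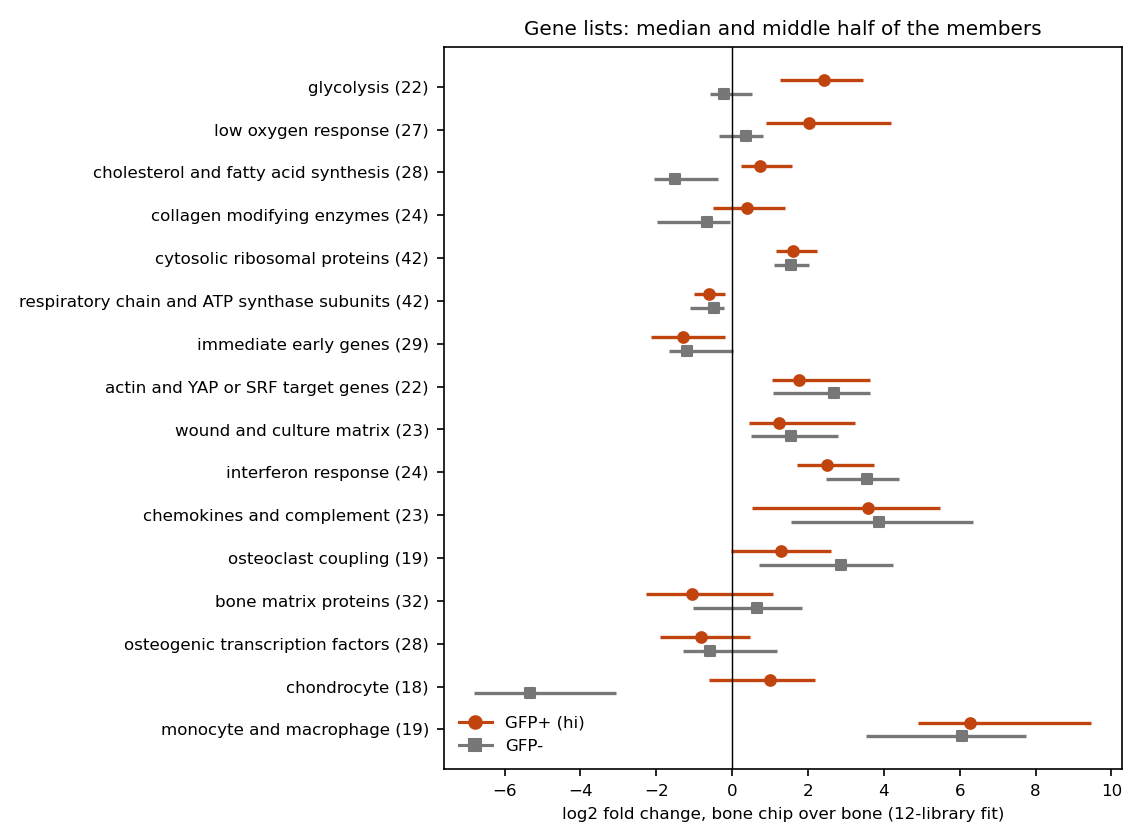
Median and quartiles of the log2 fold change of bone chip over bone for 16 gene lists, GFP+ (hi) and GFP- cells side by side, from one fit of 12 libraries. Lists that lie apart between the cell pairs include glycolysis, low-oxygen, cholesterol, chondrocyte and bone matrix genes. The chondrocyte medians are 1.00 in GFP+ (hi) and -5.32 in GFP-, and the bone matrix medians -1.06 and 0.65. Ribosomal, interferon and immediate early genes lie on the same side in both.

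Genes switched on within minutes of a stimulus were lower in culture in both kinds of cell. Of 29 immediate early genes 19 fell and 4 rose (median -1.37), and in GFP- cells 19 fell and 6 rose. Fos was at 576, 511 and 590 CPM in bone chip GFP+ (hi), against 2624, 2604 and 2542 CPM in bone GFP+ (hi) (log2 fold change -2.21). Jun, its partner in the AP-1 factor, was at 112, 94.6 and 150 CPM in bone chip GFP+ (hi), against 1408, 1776 and 1755 CPM in bone GFP+ (hi) (log2 fold change -3.79). Klf2, a factor induced by fluid flow, fell by 3.84. The groups did not overlap for either AP-1 gene. The heat shock chaperone Hspa1a, which has a near-identical neighbour, fell by 3.2, and Hsp90aa1 rose by 1.51.

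The cytoskeleton and the matrix of wound repair rose. Of 21 actin-related genes and targets of the YAP and SRF pathways 18 rose and 2 fell (median 1.53), and 18 rose in GFP- cells too (median 2.70). Myh9, non-muscle myosin, was at 664, 676 and 613 CPM in bone chip GFP+ (hi), against 53.2, 56.4 and 49.4 CPM in bone GFP+ (hi) (log2 fold change 3.62). Cyr61, a classical YAP target, fell by 1.57. Of 23 wound matrix genes 17 rose and 3 fell (median 1.18). Fn1 (fibronectin), the provisional matrix protein, was at 24025, 24374 and 18794 CPM in bone chip GFP+ (hi), against 999, 1205 and 1011 CPM in bone GFP+ (hi) (log2 fold change 4.39, SE 0.17, adjusted p = 2.4e-06), and took 2.91 ± 0.410% and 0.0826 ± 0.00869% of the counts (SD, n = 3 each). The groups were far apart for both genes. The proteoglycan Sdc4 and the growth factor Tgfb2 rose by 3.59 and 5.40, while the collagen receptor Itga11 fell by 1.32.

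Enzymes that cut and cross-link matrix changed in both directions. Mmp13, the collagenase of hypertrophic cartilage and osteoblasts, was at 4510, 4601 and 5510 CPM in bone chip GFP+ (hi), against 88.7, 136 and 18.2 CPM in bone GFP+ (hi) (log2 fold change 5.91, SE 0.69, adjusted p = 1.8e-04). Bone replicate 3 was the lowest of its group, and all chip libraries were far above. Adamts2, which trims the end of type I procollagen, was at 131, 86.6 and 149 CPM in bone chip GFP+ (hi), against 1017, 1116 and 1119 CPM in bone GFP+ (hi) (log2 fold change -3.15). Pcolce, which encodes an enhancer of procollagen C-endopeptidase, fell by 2.11. Over the list of 22 proteases and inhibitors 7 rose (31.8%) and 10 fell (45.5%), beside 30.9% and 31.6% of all genes. Of 24 collagen-modifying enzymes 11 rose (45.8%) and 9 fell (37.5%), with a median of 0.33. Loxl4, a lysyl oxidase, was at 1500, 1912 and 1136 CPM in bone chip GFP+ (hi), against 152, 130 and 115 CPM in bone GFP+ (hi) (log2 fold change 3.52). P4ha1, a catalytic subunit of prolyl 4-hydroxylase, was at 1053, 935 and 1054 CPM in bone chip GFP+ (hi), against 302, 283 and 232 CPM in bone GFP+ (hi) (log2 fold change 1.90). These enzymes were higher in every chip library. The prolyl 3-hydroxylase Lepre1, the immunophilin Fkbp10 and the collagen chaperone Serpinh1, all mutated in human osteogenesis imperfecta, fell, with log2 fold changes of -1.88, -1.69 and -1.16. The difference from GFP- cells was called higher in GFP+ (hi) for 15 of the 24 and lower for 1. That one was Lox (named after its values were seen), with log2 fold changes of 0.77 in GFP+ (hi) and 6.81 in GFP- cells.

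Secretion and biosynthesis changed in part. Of 26 genes of the endoplasmic reticulum (ER) stress response 8 rose and 13 fell (median -0.41). Xbp1, the factor of the unfolded protein response, was at 113, 112 and 111 CPM in bone chip GFP+ (hi), against 309, 270 and 235 CPM in bone GFP+ (hi) (log2 fold change -1.28). Its activator Ern1 rose by 2.47, and the chaperone Hspa5 had a log2 fold change of -0.34 (adjusted p = 0.27). Of 15 vesicle trafficking genes that the study drew from these samples and described after knockdown, 12 fell and 2 rose (median -0.92), and this list is not independent evidence of a direction. Sec24d, a cargo adaptor of COPII vesicles, was at 177, 171 and 201 CPM in bone chip GFP+ (hi), against 449, 428 and 366 CPM in bone GFP+ (hi) (log2 fold change -1.18). Sterol and fatty acid synthesis rose for 12 of 27 tested genes (median 0.63). Hmgcs1, an early enzyme of cholesterol synthesis, was at 128, 89.8 and 154 CPM in bone chip GFP+ (hi), against 64.3, 40.7 and 51.2 CPM in bone GFP+ (hi) (log2 fold change 1.25). In GFP- cells 19 of 28 tested genes of this list fell and 2 rose, and the difference was called higher in GFP+ (hi) for 22, beside 15.6% of all genes. Bone GFP- was above the other 3 groups for 20 of the 28, beside 1856 of all 13574 genes. Bone GFP+ (hi) was below the other 3 groups for 12, beside 11.2% of all genes, and bone chip GFP+ (hi) was above them for 0.

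Signals to the lineage changed in both directions in each pathway. Of 33 Wnt ligands, receptors and targets 15 rose (45.5%) and 10 fell (30.3%), beside 30.9% and 31.6% of all genes. Notum, a secreted Wnt-inactivating enzyme induced by Wnt signals, was at 1.86, 1.12 and 3.48 CPM in bone chip GFP+ (hi), against 54.6, 43.2 and 23.7 CPM in bone GFP+ (hi) (log2 fold change -4.22). Nkd2, another feedback inhibitor, was at 4.69, 2.50 and 4.69 CPM in bone chip GFP+ (hi), against 53.1, 47.9 and 46.2 CPM in bone GFP+ (hi) (log2 fold change -3.63). Both were lower in every chip library, as were Lef1 and Tcf7 above. Lrp4, the receptor that presents sclerostin, was at 169, 149 and 176 CPM in bone chip GFP+ (hi), against 18.3, 22.2 and 26.3 CPM in bone GFP+ (hi) (log2 fold change 2.89), and the receptor Fzd5 rose by 3.2.

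Of 37 genes of BMP and TGF-beta signalling 21 rose (56.8%) and 7 fell (18.9%), with a median of 0.57. Bmp7 was at 1.56, 1.81 and 3.02 CPM in bone chip GFP+ (hi), against 55.3, 48.8 and 32.4 CPM in bone GFP+ (hi) (log2 fold change -4.40). Bmp8b, a related ligand, was at 35.9, 27.3 and 40.1 CPM in bone chip GFP+ (hi), against 1.49, 1.34 and 0.839 CPM in bone GFP+ (hi) (log2 fold change 4.80). The ligands thus separated the groups in opposite directions. The extracellular BMP inhibitor Grem1 was at 2.59, 2.39 and 2.17 CPM in bone chip GFP+ (hi) and had 0 counts in bone GFP+ (hi), at least 58.5-fold higher when 3 counts over the bone group are taken as the floor. Of hormone and growth factor genes, Igf1r, the IGF-1 receptor, was at 199, 209 and 157 CPM in bone chip GFP+ (hi), against 3.51, 4.93 and 7.07 CPM in bone GFP+ (hi) (log2 fold change 5.20, SE 0.27). Pth1r, the parathyroid hormone receptor, was at 679, 645 and 662 CPM in bone chip GFP+ (hi), against 682, 752 and 903 CPM in bone GFP+ (hi), with no difference called (log2 fold change -0.24, adjusted p = 0.13). Igfbp3 rose by 4.05 and Igfbp6 fell by 3.12.

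Signals to osteoclasts and blood cells rose for 10 of 18 genes and fell for 3 (median 1.14), and 13 rose in GFP- cells (median 2.86). Cxcl12, the chemokine that retains marrow cells, was at 114, 115 and 107 CPM in bone chip GFP+ (hi), against 7.43, 4.57 and 2.74 CPM in bone GFP+ (hi) (log2 fold change 4.48). Tnfsf11 (RANKL), the osteoclast-inducing ligand, was at 2.89, 1.49 and 8.06 CPM in bone chip GFP+ (hi), against 4.48, 2.01 and 0.663 CPM in bone GFP+ (hi). Its groups overlapped (log2 fold change 0.78, adjusted p = 0.40), and its decoy receptor Tnfrsf11b also passed no threshold (log2 fold change -0.36, adjusted p = 0.10). Csf1, the macrophage growth factor, rose by 1.06.

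Immune genes rose in the chip libraries of both kinds of cell. Of 24 interferon response genes 23 rose (median 2.42), and 23 rose in GFP- cells (median 3.57), beside 32.3% of all genes in GFP- cells. Of 20 chemokine and complement genes 15 rose and 1 fell (median 3.84). Saa3, an acute-phase protein, was at 294, 180 and 408 CPM in bone chip GFP+ (hi), against 0, 0 and 0.133 CPM in bone GFP+ (hi), a ratio of normalised counts of 7312 (95% counting interval 2502 to 35462). Cxcl2 rose by 7.44 (8.34 without bone replicate 1).

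Markers of other cell types were measured in the same libraries, because a sort gate can hold some of them. In bulk RNA fewer cells of a type and less RNA per cell cannot be told apart. All 18 tested macrophage markers were higher in bone chip GFP+ (hi). Of these, 5 had 0 counts in bone GFP+ (hi) and passed the filter on low counts through the chip libraries. For these 5 a lower call was not possible. The summed level of the macrophage list was 594, 772 and 438 CPM in bone chip GFP+ (hi), against 5.91, 21.3 and 10.9 CPM in bone GFP+ (hi). The macrophage genes Ctss, C1qa, C1qb and Emr1 had 0 counts in every bone GFP+ (hi) library and were at least 845, 401, 576 and 548-fold higher in bone chip GFP+ (hi), with 3 counts over the bone group as the floor. Lyz2 (lysozyme) was at 293, 345 and 221 CPM in bone chip GFP+ (hi), against 0.0571, 8.1 and 1.28 CPM in bone GFP+ (hi), a log2 fold change of 6.72, which was 8.95 without bone replicate 2 and 5.98 without bone replicate 1. Chip replicate 2 was the highest of its group in both sums and genes. The part of these cells in the rise of interferon, chemokine and complement genes was not tested. Chondrocyte markers summed to 5017, 6439 and 5068 CPM in bone chip GFP+ (hi), against 4449, 3014 and 1779 CPM in bone GFP+ (hi). Of 16 tested, 7 rose and 2 fell (4 fell without bone replicate 3). Col2a1, the main cartilage collagen, was at 2927, 3798 and 3268 CPM in bone chip GFP+ (hi), against 3628, 2325 and 1518 CPM in bone GFP+ (hi), and no difference was called (log2 fold change 0.42, adjusted p = 0.23). Hapln1, the link protein of cartilage, and Col10a1, the collagen of hypertrophic chondrocytes, rose by 3.07 (3.97 without bone replicate 1) and 6.40. The members that fell were the matrix protein genes Matn3 (log2 fold change -2.36) and Chad, which was at 27.4, 48.2 and 29.2 CPM in bone chip GFP+ (hi), against 182, 222 and 88.7 CPM in bone GFP+ (hi) (log2 fold change -2.23). Erythroid and neutrophil markers summed to at most 2.07 CPM in bone chip GFP+ (hi). In bone GFP+ (hi) the erythroid sums were 2.11, 25.8 and 6.89 CPM and the neutrophil sums 6.03, 47.8 and 24.8 CPM, highest in replicate 2. The globin genes Hba-a1, Hba-a2, Hbb-b1 and Hbb-b2 were listed for neither source, so the erythroid sums leave them out.

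**Figure D5:**
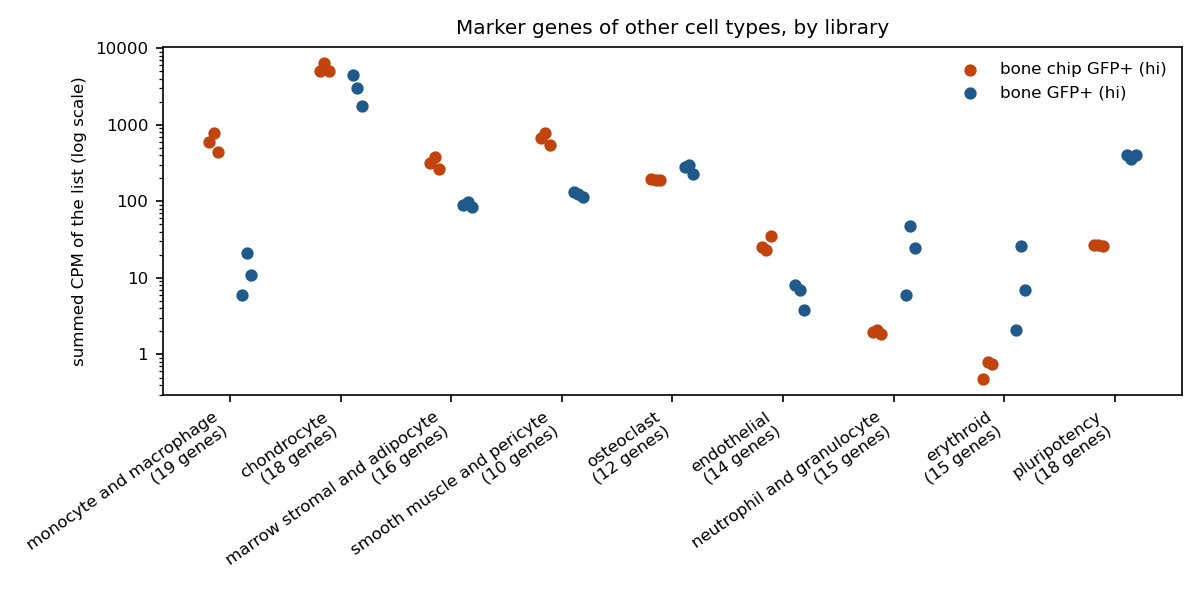
Summed level of marker lists of other cell types in each of the 6 GFP+ (hi) libraries, in CPM on a log axis, bone chip left of bone. Macrophage markers sum to 438 to 772 CPM in bone chip GFP+ (hi) and to 5.91 to 21.3 CPM in bone GFP+ (hi), whereas chondrocyte markers lie closer together.

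By the rule for the largest changes, the rises were led by Saa3 and by genes with no count in bone GFP+ (hi). Besides the macrophage genes these included C3ar1, the receptor for a complement fragment, at least 315-fold higher, and the chemokine Ccl3, at least 346-fold higher. Adm2, a peptide hormone of the adrenomedullin family, was at 39.3, 43 and 21.6 CPM in bone chip GFP+ (hi), against 0, 0 and 0.0442 CPM in bone GFP+ (hi), a ratio of 2535 (95% counting interval 454 to 100172). The bone group held a single count of Adm2, in replicate 3, and 3 counts of Saa3, also in replicate 3, so that without this library both had 0 counts in bone. The largest falls were led by Sstr1, a somatostatin receptor, with 0 counts in bone chip GFP+ (hi) and 22.5, 13.3 and 21.6 CPM in bone GFP+ (hi), at least 372-fold lower. Tnmd (tenomodulin), a membrane protein of tendon, was at 0.120, 0.106 and 0.0504 CPM in bone chip GFP+ (hi), against 63.2, 79.7 and 28.6 CPM in bone GFP+ (hi) (log2 fold change -9.21). Cdh15 (M-cadherin), an adhesion protein of muscle precursors, was at 0.541, 0.425 and 1.26 CPM in bone chip GFP+ (hi), against 173, 229 and 213 CPM in bone GFP+ (hi) (log2 fold change -8.07, SE 0.31, adjusted p = 2.4e-06, and -8.72 without bone chip replicate 3). Cpz, a carboxypeptidase that acts on Wnt ligands, was at 6.20, 4.25 and 8.31 CPM in bone chip GFP+ (hi), against 800, 800 and 773 CPM in bone GFP+ (hi) (log2 fold change -6.98, SE 0.25). No library of one group overlapped the other for any of these genes.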

How the data were processed

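RNA was extracted with a spin-column kit, poly-A selected, and sequenced as paired reads of 100 bases. The authors deposited whole-number read counts per gene symbol, one table per source. Per the labels, reads were aligned with STAR 2.4.2a to mm9 and processed with DESeq2 in R 3.2.2. The counting tool, strand setting and treatment of multi-mapping reads were not given in the sources used here.

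The deposited counts were joined by gene symbol, keeping the 15968 genes listed in both tables. Genes were filtered with filterByExpr (minimum count 10), scaled by TMM and tested with edgeR 4.0.16 (quasi-likelihood F test, no covariates, Benjamini-Hochberg adjustment) in R 4.3.3. A fit of 12 libraries with an interaction term tested the difference from GFP- cells. The SE was the absolute log2 fold change over the root of F. A group without counts was set at a floor of 3 counts, and counting intervals (95%) were exact and cover counting error only. Alternatives were DESeq2 1.42.0, other scalings, filters, joins, a replicate block and leaving out libraries or gene groups. Simulated data of 12266 genes held 49, 49, 50 and 49 genes changed by 0.5, 1, 2 and 3 on the log2 scale. The test recovered 6.12%, 34.7%, 82% and 89.8% of them. The changed share there was far below the 62.5% called in the data, so recovery in the data may differ. Figures were drawn with matplotlib 3.10.9.

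Promoter windows came from RefSeq tables, and GRCm38.p6 coordinates were not mixed with mm9. Lengths and base content were taken from an annotation matched for 91.9% of tested genes.

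The comparison, its gene lists and tests were chosen with earlier results of these data known. Named genes were the 3 markers, the 10 largest called rises and falls at 10 CPM or more, the first 3 members of each list and up to 6 called members in each direction, the genes with most counts, the 5 largest differences from GFP- cells in each direction, and common reference genes. Genes named outside this rule are Spp1, Dcn, Lum, Tpi1, Pkm, Ldha, Hif1a, Epas1, Vegfa, Lox and Cdh11. Replicates of a group differed by more than sampling noise and were kept as separate samples. Embryonic stem cell libraries served only to find the share of stem cell genes, and the libraries of osteoblasts derived from them were not compared here. Results for some named genes are not reported here.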

Additional observations from a re-analysis of the deposited data

Results flagged for a closer look

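In the fit of 12 libraries the source change differed between GFP+ (hi) and GFP- cells by the interaction test for 2117 genes with a higher and 1991 genes with a lower change in GFP+ (hi). Bglap fell more in GFP+ (hi) than in GFP- cells, with a difference of -5.54 on the log2 scale, and Slc2a1 rose more, with a difference of 4.48. Of the differences below, those with under 4 counts in a group depend on the small prior count of the fit, and they are given as fitted values.

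The 5 largest positive differences were in genes at or near 0 in bone GFP+ (hi). Adm2 differed by 10.62, with 53.4, 58.3 and 29.4 CPM in bone chip GFP+ (hi), 0, 0 and 0.0561 CPM in bone GFP+ (hi), 11.3, 11.9 and 5 CPM in bone chip GFP- and 9.41, 6.63 and 8.25 CPM in bone GFP- (12-library scale). Rasgrf2, an exchange factor for Ras, differed by 9.74. H2-Ab1, a class II antigen-presenting chain of macrophages and B cells, differed by 9.44, with 18.4, 22 and 16 CPM in bone chip GFP+ (hi) and 0.262, 0 and 0 CPM in bone GFP+ (hi). In GFP- cells H2-Ab1 was instead lower in the chips, at 3.37, 9.55 and 3.34 CPM in bone chip GFP- against 25.8, 29.7 and 20.7 CPM in bone GFP-. Col10a1 differed by 9.43, and its levels of 1247, 557 and 1224 CPM in bone GFP- were the highest of the 4 groups. Nog (noggin), an inhibitor of BMP ligands, differed by 9.09, with 14.5, 15.4 and 18.7 CPM in bone chip GFP+ (hi) and 0.600, 0.476 and 0 CPM in bone GFP+ (hi), against 3.07, 3.82 and 5.04 CPM in bone chip GFP- and 59.9, 42.5 and 53.5 CPM in bone GFP-.

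The 5 largest negative differences were in genes found mainly in bone GFP+ (hi). Tmem200a differed by -12.01, Cdh15 by -10.86, the protocadherin Pcdhac2 by -9.84, Clec14a by -8.77 and the somatostatin receptor Sstr1 by -8.49. Cdh15 had 0 counts in bone GFP-, and Sstr1 had 0 counts in bone chip GFP+ (hi).

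Some genes were listed in only one of the tables and entered no test. Of these, the bone chip GFP+ (hi) libraries held Marco at a mean of 8.56 CPM and Trem2 at 8.45 CPM, both receptors of macrophages and related cells, and Galnt13 at 8.32 CPM. The bone GFP+ (hi) libraries held the sodium exchanger Slc9a2 at a mean of 68.2 CPM, the neutrophil granule gene Ngp at 6.08 CPM and Cdh12 at 3.54 CPM. Ngp rested on 2 libraries, with 1, 313 and 109 counts. The CPM of these table-only genes were scaled by library total without TMM factors, so they do not compare directly with other levels given here.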

How the results depend on the processing

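Leaving out 1 library at a time gave 3259 to 4494 genes higher and 3269 to 4390 lower, with the fewest without bone chip GFP+ (hi) replicate 1 and the most without bone GFP+ (hi) replicate 3. Testing against a change of 1 on the log2 scale left 2095 genes higher and 1533 lower, and 149 list members lower, against 260 in the main test. Another scaling, filter, join, thinning to the smallest library or DESeq2 (4129 higher, 3793 lower) kept both counts within 1.5 times. No scaling moved the median of all genes by over 0.1, but each scaling used sets most genes near 0. The median therefore could not show a shift common to most genes, and scaling by library size alone was not run. Replicate numbers did not pair the libraries by the correlation of their deviations (0.03, 0.05 and 0.07) and a replicate block gave 3757 higher and 3649 lower. Medians of mixed lists changed sign. ATF4 genes had -0.12 without the genes under 2 times the stem cell share and -0.072 to 0.16 when leaving out libraries. Hox genes had 0.39 with no filter and 0.23 in the fit of 12 libraries, and fibroblast genes -0.67 to 0.084 when leaving out libraries. Genes that were not called changed sign when libraries were left out, with ranges of -0.19 to 0.29 for Top2a, -0.39 to 0.10 for Bmp4, -0.14 to 1.65 for Tnfsf11 and -0.15 to 0.19 for Spp1. The cause of these changes was not tested. Genes with few counts in bone GFP+ (hi), such as Egln3, Car9 and Sost, have the least certain folds.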

Other observations

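Values of further gene groups follow, and over all genes tested 30.9% were higher and 31.6% lower. In GFP- cells these shares were 32.3% and 31.1%. Among 24 genes of the ATF4 and amino acid response 9 rose (37.5%) and 9 fell (37.5%) in bone chip GFP+ (hi), whereas 5 rose and 15 fell in GFP- cells, and the difference was called higher in GFP+ (hi) for 16 genes and lower for 3. Trib3, a pseudokinase induced by ATF4, was at 40.4, 52.3 and 18.4 CPM in bone chip GFP+ (hi) and 0.937, 1.66 and 0.281 CPM in bone GFP+ (hi), against 13.3, 17.3 and 6.47 CPM in bone chip GFP- and 67.7, 57.8 and 52.6 CPM in bone GFP- (12-library scale). Of 17 oxidative stress genes 9 rose and 3 fell: Hmox1 (haem oxygenase) rose by 2.18 on the log2 scale, and Gpx3, a secreted glutathione peroxidase, was at 472, 450 and 549 CPM in bone chip GFP+ (hi), against 1659, 1826 and 1606 CPM in bone GFP+ (hi) (log2 fold change -1.79). Of 32 cell cycle genes 4 rose (12.5%) and 9 fell (28.1%). The 9 became 3 without bone chip replicate 2, 4 without bone chip replicate 1 or bone replicate 2, and 14 without bone replicate 3. Mki67, a marker of dividing cells, was at 11.4, 11.9 and 16.7 CPM in bone chip GFP+ (hi), against 4.17, 6.82 and 4.15 CPM in bone GFP+ (hi) (log2 fold change 1.41). Of 20 cell cycle inhibitors and p53 targets 6 rose and 9 fell. Cdkn2a, the INK4a/ARF locus that rises with cell passage and ageing, was at 35.3, 33 and 30.6 CPM in bone chip GFP+ (hi), against 0.0571, 0.244 and 0.221 CPM in bone GFP+ (hi) (log2 fold change 7.71, SE 0.33, and 7.11 without bone replicate 1), and it rose in GFP- cells by 7.39. Gadd45g, a stress-induced gene, fell by 4.16.

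Of 26 channel and adhesion genes 9 were higher (34.6%) and 10 lower (38.5%), which is near the shares of all genes. The pannexin channel gene Panx3 was at 759, 600 and 761 CPM in bone chip GFP+ (hi) and 148, 115 and 135 CPM in bone GFP+ (hi), against 46.7, 53.2 and 47.3 CPM in bone chip GFP- and 505, 582 and 395 CPM in bone GFP- (12-library scale), so that its source change had opposite signs in the cell pairs (difference 5.74, adjusted p = 6.0e-08). Scn1a, a sodium channel of nerve cells, was at 53.8, 51.2 and 64.4 CPM in bone chip GFP+ (hi), against 1.31, 1.95 and 0.0884 CPM in bone GFP+ (hi) (log2 fold change 5.70). Cdh11, the cadherin of osteoblasts, passed no threshold in GFP+ (hi) cells (log2 fold change -0.26, adjusted p = 0.17). Of 23 tested Hox and limb positional genes 2 rose and 10 fell in GFP+ (hi), whereas 14 rose and 1 fell in GFP- cells, and the 2 became 6 without bone replicate 3 and 0 (edgeR) without bone chip replicate 1 or 3. Of 18 tested fibroblast, tendon and progenitor genes 5 rose and 8 fell, and among them the stem cell antigen gene Ly6a rose by 8.17 (9.12 without bone replicate 2). Of 9 tested smooth muscle and pericyte genes 6 rose, among them the pericyte proteoglycan gene Cspg4, by 2.52. Of 7 tested osteoclast markers 2 rose and 4 fell. The integrin gene Itgb3 rose by 4.06 (4.74 without bone replicate 2), and Tnfrsf11a, the receptor of RANKL, had 59 counts over the bone chip GFP+ (hi) libraries and 0 in bone GFP+ (hi). Carbonic anhydrase 2 (Car2), an enzyme of osteoclasts and red cells, was at 0.481, 0.425 and 0.705 CPM in bone chip GFP+ (hi), against 20.1, 23.1 and 28.3 CPM in bone GFP+ (hi) (log2 fold change -5.45).

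Of 18 listed pluripotency genes 8 were tested, and Nanog and Pou5f1 passed the filter on low counts through the bone libraries. Nanog was at 0.0602, 0 and 0.0504 CPM in bone chip GFP+ (hi), against 2.86, 3.59 and 3.76 CPM in bone GFP+ (hi), and Pou5f1 had 0 counts in bone chip GFP+ (hi), against 3.08, 2.98 and 4.06 CPM in bone GFP+ (hi). These levels stand beside the share of 0.287% at which stem cell genes were found in the bone GFP+ (hi) libraries, and the origin of that share was not tested.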
